A study of Homo sapiens with 12 samples.

Results

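The genes described here are the CDKN genes, which encode inhibitors of the cyclin-dependent kinases (CDKs) and 1 phosphatase that acts on them. They are CDKN1A, CDKN1B, CDKN1C, CDKN2A, CDKN2B, CDKN2C, CDKN2D and CDKN3, and they were chosen by name: the rows of the table whose Ensembl identifiers belong to these symbols, which are 8 of 20595 genes. RNA-seq was performed on A549 and H1792, established lung adenocarcinoma cell lines that the study describes as MDM2-amplified. A549 was treated as p53 wild type and H1792 as p53 mutant, as the design text gives them. Cells received the solvent DMSO or RG7112, a small molecule that binds MDM2 and blocks its hold on p53, for 48 h, which gave 4 groups of 3 samples: A549 with DMSO, A549 with RG7112, H1792 with DMSO and H1792 with RG7112. The dose was 1 μM by the sample labels, while the column names of the table give a lower one. Each line stands for its genotype alone, so that p53 status and every other difference between A549 and H1792 cannot be told apart. Nothing states that replicates were separate cultures, so p-values measure the spread between these samples, which may be technical.

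CDK inhibitors hold cells back from dividing. The Cip/Kip proteins (p21 from CDKN1A, p27 from CDKN1B and p57 from CDKN1C) bind CDKs together with their cyclins, and CDKN1A is the best known target of p53 in the arrest of the cell cycle. The INK4 proteins (p16 from CDKN2A, p15 from CDKN2B, p18 from CDKN2C and p19 from CDKN2D) bind CDK4 and CDK6 and keep cyclin D away from them, and CDKN2A also encodes ARF, which restrains MDM2. CDKN3 is a phosphatase that removes an activating phosphate from CDKs, and its RNA is high in dividing cells.

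The library totals lay between 2011916 and 6218825 counts, so that 3 counts, taken as the limit of detection, were worth 0.465 to 1.43 CPM (counts scaled to the same library total). This limit covers counting error only. Keratin RNAs were found in both lines, with 757 to 3681 counts of KRT7. KRT8 had 25243 to 73664 counts in A549 and 2392 to 4494 in H1792, and KRT19 had 3392 to 17012 and 125 to 256. Other epithelial genes were low: EPCAM had 0 to 9 counts in A549 and 3 to 35 in H1792, and CDH1 7 to 131 and 0 to 4. The defining lung genes NKX2-1, SFTPB and SFTPC had at most 2 counts in any library. The lung gene NAPSA had 6 to 26 counts in A549 and 0 to 3 in H1792. Markers of other cell types summed to 3.81 to 9.56 CPM in A549 and to 1113 to 1426 CPM in H1792, where COL1A2 and COL1A1 held most of the sum, and 5 or 6 of the 12 markers were at 0 in each group. In A549, replicate 3 of both treatments stood apart from the other samples on the second principal component, which held 25.4% of the variance. Its part in the results was not tested, and values without it are given beside the CDKN1A and CDKN3 results.

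Across the 12 samples, 4 of the 8 genes had enough counts to be tested (CDKN1A, CDKN1B, CDKN2D and CDKN3), and these 4 passed the filter on low counts in every comparison. The other four, CDKN1C, CDKN2A, CDKN2B and CDKN2C, did not pass it in any and are given by their counts. A gene was called when its edgeR p-value, adjusted by Benjamini-Hochberg over all genes tested, was under 0.05 and its log2 fold change was beyond 1 in either direction. In A549, 1 of the 4 genes was called higher with RG7112 and 1 lower, where 3.18% of the 10739 genes tested were called higher, 3.01% lower and 6.19% in either direction. In H1792, 0 of the 4 were called by edgeR in either direction, where 10.3% of the 9914 genes tested were called higher, 4.34% lower and 14.6% in all, and DESeq2 and limma also called 0 of them. The CPM of treated and control samples did not overlap for 2 of the 4 in A549, against 32.4% of all genes tested, and for 0 of the 4 in H1792, against 53.3%. By an unadjusted edgeR p under 0.05, 1 of the 4 passed in H1792, which was CDKN1B.

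**Figure D1:**
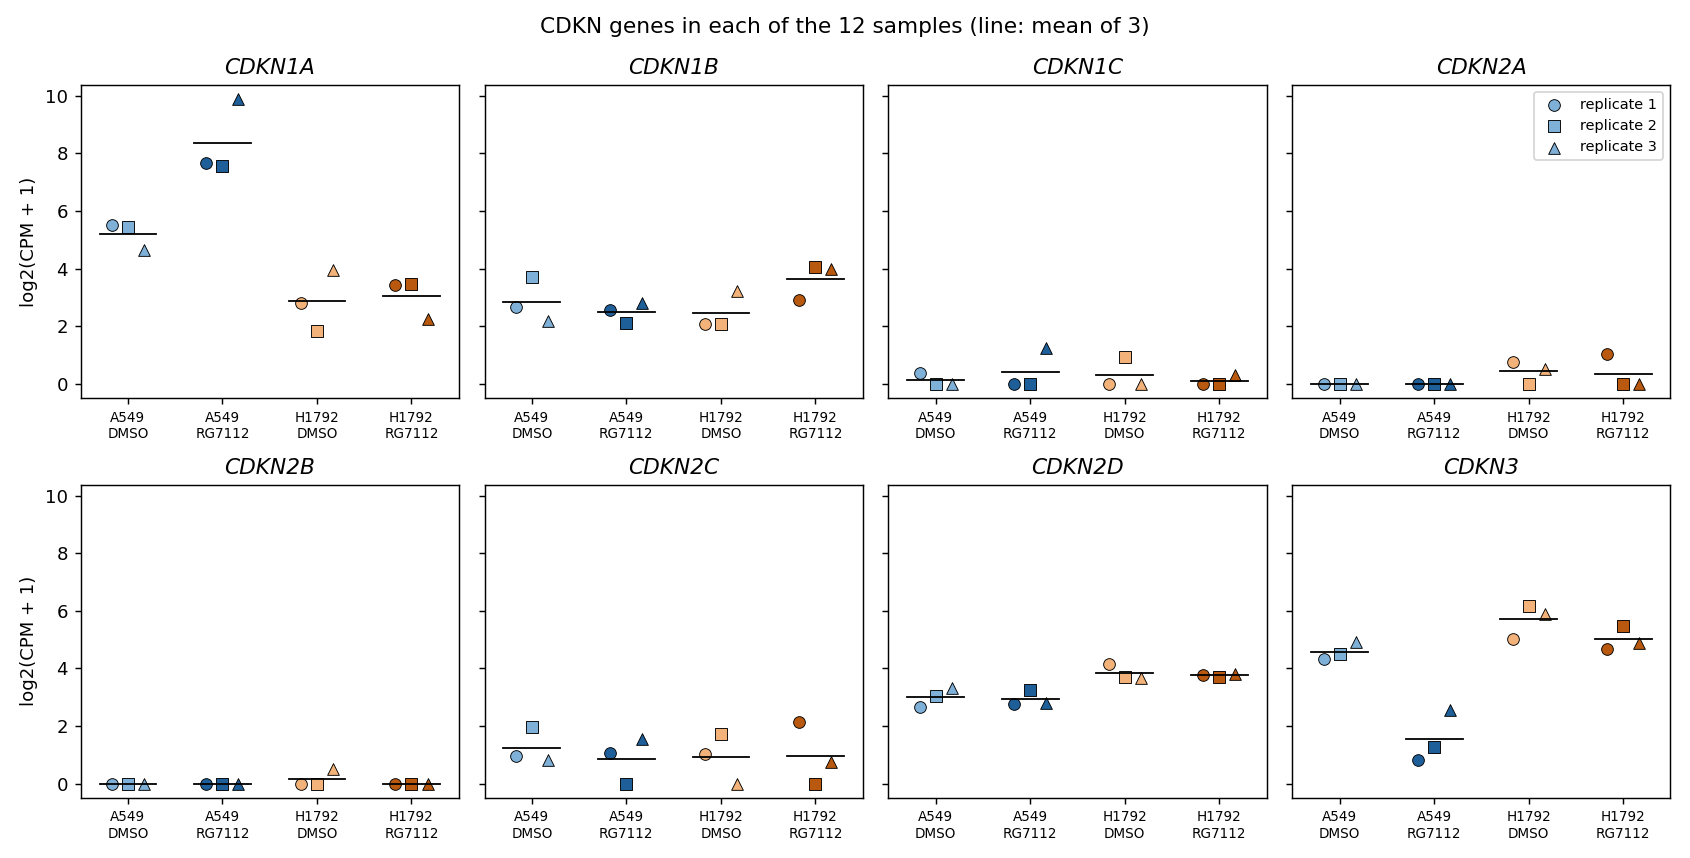
Level of each of the 8 CDKN genes in each of the 12 samples, as log2(CPM + 1) on the vertical axis, by cell line and treatment on the horizontal axis; marker shape gives the replicate and the line the mean of the 3 plotted values. The 3 A549 samples with RG7112 lie above every other sample for CDKN1A and below every other sample for CDKN3, and CDKN1C, CDKN2A and CDKN2B lie at or near 0 throughout.

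CDKN1A (ENSG00000124762) lies on chromosome 6 at 36676460-36687339 of GRCh38, on the plus strand. In A549 with DMSO its level was 45.0, 42.5 and 24.2 CPM in replicates 1, 2 and 3. With RG7112 it was 203, 190 and 942 CPM. The groups did not overlap, and the third treated sample was far above the other two. The means were 37.2 ± 11.4 CPM (SD, n = 3) and 445 ± 431 CPM (SD, n = 3), and the log2 fold change was 3.58 (SE 0.70, edgeR adjusted p = 0.0252), a fold of 11.95. Replicate 3 decided much of this value. Without the third RG7112 sample the log2 fold change was 2.41 (edgeR adjusted p = 0.00914), and with replicates 1 and 2 of both treatments alone it was 2.18 (SE 0.10, edgeR adjusted p = 0.00171), a fold of 4.53. The call was lost when any one DMSO sample was left out, with edgeR adjusted p-values from 0.0867 to 0.0960. By an exact permutation test of the 3 against 3 values p was 0.1, the smallest that this design can give.

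In H1792, CDKN1A was low with either treatment. It was 5.99, 2.54 and 14.4 CPM with DMSO and 9.82, 10.1 and 3.72 CPM with RG7112, so that the groups overlapped. The log2 fold change was 0.15, with a 95% interval from -1.49 to 1.80 (edgeR adjusted p = 0.882). The value fitted in A549 lies outside this interval, and a log2 change of 1 in either direction lies within it. The sign was not fixed: it turned in 3 of the 6 fits that left out 1 sample, which ranged from -0.31 to 0.99. The response of A549 minus that of H1792 was 3.40 on the log2 scale (SE 1.08, edgeR adjusted p = 0.0450), where 10.4% of the 11666 genes tested passed with a higher and 11.4% with a lower value in A549, 21.8% in all. With A549 replicates 1 and 2 alone the difference was 1.99 (edgeR adjusted p = 0.0965), and with scaling by library size alone it was 2.93 (edgeR adjusted p = 0.0623). The call was lost in 8 of 11 other settings of the fit, these 2 among them. It was also lost in 9 of the 12 fits that left out 1 sample and held without A549 RG7112 replicates 1 or 2 or H1792 DMSO replicate 2.

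In cells that had received DMSO alone, CDKN1A was also higher in A549 than in H1792, by a log2 fold change of 2.39 (SE 0.61, edgeR adjusted p = 0.0162). The lowest A549 sample, at 24.2 CPM, was above the highest H1792 sample, at 14.4 CPM. This comparison shares its DMSO samples with those of the treatment, and of the 10330 genes tested in it 20.6% were called higher in A549 and 14.8% lower, 35.5% in all. The groups did not overlap for 3 of the 4 CDKN genes tested, against 61.1% of all genes. The CDKN1A call was lost without H1792 DMSO replicate 1 or A549 DMSO replicates 1 or 2, and fits that left out 1 sample ranged from 1.91 to 3.20 with edgeR adjusted p-values up to 0.0577.

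The sequence just before the CDKN1A start is shown because CDKN1A was the gene of the 8 that rose in A549; it is RefSeq sequence of GRCh38.p14, chr6:36678464-36678657, plus strand. By GENCODE v29 it is intronic for transcripts that begin further upstream and ends where the first exon of the others begins. Capitals mark the GC box GGGCGG, a site of the Sp1 family.
CDKN1A: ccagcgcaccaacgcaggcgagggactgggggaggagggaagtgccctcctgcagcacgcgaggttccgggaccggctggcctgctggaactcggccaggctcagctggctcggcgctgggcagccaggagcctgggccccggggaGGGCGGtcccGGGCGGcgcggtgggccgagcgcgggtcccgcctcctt
Within the 250 bases before the RefSeq start, GGGCGG was found 4 times on either strand, and 42.6% of 35116 promoters of that length held at least 1. The printed stretch holds the first 194 of these bases, and the matches beyond it are not shown. A p53 half-site, searched by its consensus on both strands, was not in the 250 bases and was in 5.57% of promoters. Sequence further from the start was not searched, so the absence does not cover sites there. GGGCGG was also found at 1 start or more of every other CDKN gene with an entry except CDKN3. It ranged from 1 match before CDKN1B to 5 before 1 start of CDKN2C, so that it does not set CDKN1A apart. All these matches are letters only.

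CDKN1A was set beside other known targets of p53. Of 30 tested p53 targets other than CDKN1A, 8 were called higher and 0 lower in A549, where 3.18% of all genes were called higher, with a median log2 fold change of 0.97 against -0.015 over all genes tested. Leaving out 1 sample gave 4 to 10 called higher, with 4 without DMSO replicate 2. MDM2, the ligase that degrades p53 and is itself a p53 target, was 3.12, 9.56 and 12.95 CPM with DMSO and 72.8, 58.6 and 76.1 CPM with RG7112 in A549 (log2 fold change 2.99, SE 0.45, edgeR adjusted p = 0.0102). In H1792 the log2 fold change of MDM2 was -0.05 (95% interval -0.89 to 0.79). TP53I3, an oxidoreductase gene, rose from a mean of 353 to 1503 CPM in A549. BBC3, which encodes the death protein PUMA, rose from 25.6 to 86.7 CPM, and TRIM22, an antiviral gene, from 4.43 to 33.2 CPM. The treated sample 3 exceeded the mean of the other 2 treated samples 4.80-fold for CDKN1A. This ratio had a median of 0.962 over the 8 other targets and of 1.12 over all 342 genes called higher in A549. Both sets were selected by that call, which favors genes whose treated samples are alike. They cannot show whether the excess in sample 3 was particular to CDKN1A. The highest ratio among the 8 was 1.40, for FDXR, a mitochondrial reductase named after its values were seen.

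**Figure D2:**
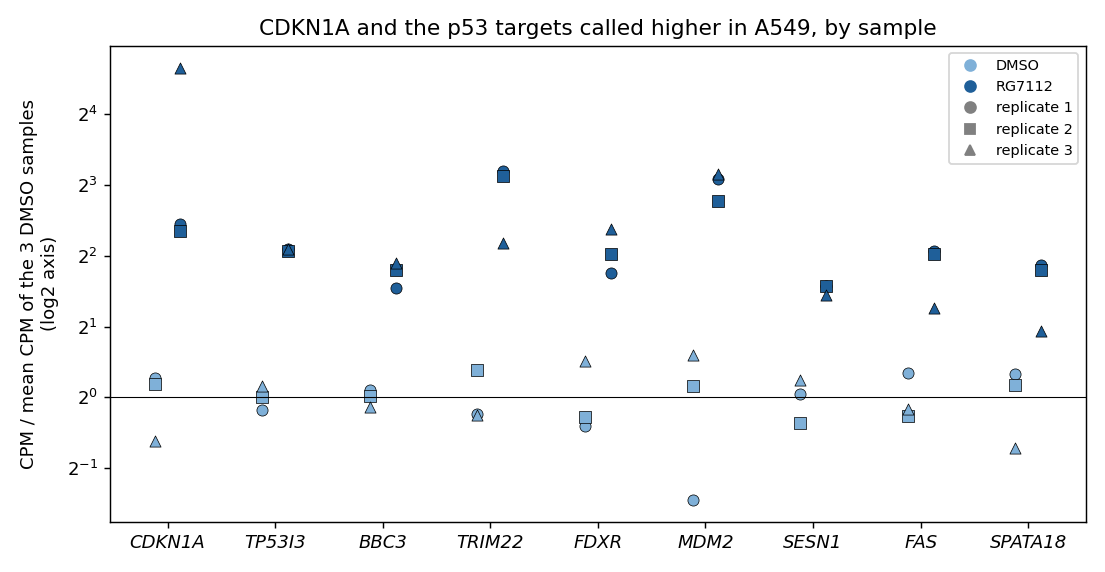
Level of CDKN1A and of the 8 p53 targets called higher in A549, as CPM divided by the mean CPM of the 3 DMSO samples (vertical log2 axis), with marker shape for the replicate and color for the treatment. CDKN1A in RG7112 replicate 3 lies 25.3-fold above the DMSO mean and replicates 1 and 2 lie at 5.46 and 5.10, while TP53I3 lies at 4.21 to 4.29 in all 3.

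CDKN1B (ENSG00000111276; chromosome 12, 12715058-12722371, plus strand), the gene of p27, was measured at a few CPM. In A549 it was 5.31, 12.1 and 3.49 CPM with DMSO and 4.96, 3.34 and 5.98 CPM with RG7112. The groups overlapped, and the log2 fold change was -0.55 (95% interval -1.80 to 0.71, edgeR adjusted p = 0.594). In H1792 it was 3.17, 3.23 and 8.28 CPM with DMSO and 6.46, 15.7 and 14.9 CPM with RG7112. Here the fitted value was 1.45 (SE 0.53) and missed the threshold (edgeR adjusted p = 0.0785), with 1 DMSO sample inside the range of the treated ones. It passed when DMSO replicate 3 was left out (2.02, edgeR adjusted p = 0.0409), when RG7112 replicate 1 was left out (1.75, edgeR adjusted p = 0.0444), and with scaling by library size alone (1.72, edgeR adjusted p = 0.0495). The difference between the responses was -1.91 (95% interval -3.66 to -0.17, edgeR adjusted p = 0.108). CDKN1C (ENSG00000129757), the imprinted gene of p57, had 5 counts in A549 RG7112 replicate 3, 4 in H1792 DMSO replicate 2, and 0 or 1 in the other 10 libraries.

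The INK4 genes on chromosome 9 were close to silent. CDKN2A (ENSG00000147889; 21967753-21995301, minus strand) had 0 counts in all 6 A549 libraries. In H1792 it had 2, 0 and 1 counts with DMSO and 4, 0 and 0 with RG7112, so that only 1 library exceeded 3 counts. CDKN2B (ENSG00000147883; 22002903-22009363, minus strand) had 1 count in all, in H1792 DMSO replicate 3. A549 is known to have lost the CDKN2A locus from both chromosomes, and no DNA was measured here. MTAP, at 21802543-21937651, is the neighboring gene of the methionine salvage pathway. In A549 its counts were 19, 29 and 12 with DMSO and 29, 13 and 3 with RG7112. In H1792 they were 51, 57 and 37 with DMSO and 118, 200 and 174 with RG7112. These MTAP counts are not scaled for library totals. The antisense gene CDKN2B-AS1 overlaps both CDKN2A and CDKN2B and was not analysed here.

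CDKN2C (ENSG00000123080; chromosome 1, 50960745-50974633, plus strand), the gene of p18, was seen at up to 3.36 CPM. Its counts were 3, 17 and 3 with DMSO and 7, 0 and 7 with RG7112 in A549, and 3, 10 and 0 with DMSO and 13, 0 and 3 with RG7112 in H1792. The groups overlapped in both lines, and libraries of one group ranged from 0 to 13 counts, so that no difference was detectable at this depth.

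CDKN2D (ENSG00000129355; chromosome 19, 10566462-10569059, minus strand), the gene of p19, was the INK4 gene with enough counts to test. In A549 it was 5.31, 7.17 and 8.97 CPM with DMSO and 5.73, 8.58 and 5.98 CPM with RG7112. In H1792 it was 16.6, 12.001 and 11.8 CPM with DMSO and 12.7, 11.9 and 13.04 CPM with RG7112. Both pairs of groups overlapped. The log2 fold change was -0.10 in A549 (95% interval -0.95 to 0.74) and -0.03 in H1792 (95% interval -0.58 to 0.52), so that a log2 change of 1 in either direction lies outside both intervals. A correction for GC content moved the H1792 value to 0.48 (edgeR adjusted p = 0.206). With DMSO, the 3 A549 samples lay below the 3 H1792 samples, with a log2 fold change of -0.86 (SE 0.31, edgeR adjusted p = 0.0540) that missed the threshold. It passed with A549 replicates 1 and 2 alone (-1.04, edgeR adjusted p = 0.0447).

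CDKN3 (ENSG00000100526; chromosome 14, 54396849-54420218, plus strand) fell in A549. It was 19.1, 21.3 and 29.1 CPM with DMSO and 0.775, 1.43 and 4.89 CPM with RG7112, the last from 5, 3 and 18 counts. The groups did not overlap, and the treated sample 3 held the most of this RNA. The means were 23.2 ± 5.29 and 2.36 ± 2.21 CPM (SD, n = 3), and the log2 fold change was -3.30 (SE 0.64, edgeR adjusted p = 0.0233). In 5 of the 6 fits that left out 1 sample, all but the one without RG7112 replicate 3, the call was lost, with edgeR adjusted p-values up to 0.0861. Without RG7112 replicate 3 the log2 fold change was -4.51 (edgeR adjusted p = 0.00611), with replicates 1 and 2 of both treatments alone it was -4.33 (SE 0.40, edgeR adjusted p = 0.00692), and the smallest value without 1 sample was -2.78. In H1792 it was 31.7, 71.1 and 58.9 CPM with DMSO and 24.3, 43.8 and 28.6 CPM with RG7112. These groups overlapped, and the log2 fold change of -0.66 (95% interval -1.47 to 0.16, edgeR adjusted p = 0.179) missed the threshold. The response of A549 minus that of H1792 was -2.58 (SE 0.73, edgeR adjusted p = 0.0300), and it was -2.12 with a correction for GC content (edgeR adjusted p = 0.0889). With A549 replicates 1 and 2 alone it was -3.61 (edgeR adjusted p = 0.00607). The difference lost the call in 5 of the 12 fits that left out 1 sample, those without H1792 DMSO replicates 1 or 3, H1792 RG7112 replicate 2, A549 DMSO replicate 2 or A549 RG7112 replicate 2, with edgeR adjusted p-values up to 0.0685. With DMSO, CDKN3 was lower in A549 than in H1792 by a log2 fold change of -1.17 (SE 0.32, edgeR adjusted p = 0.0215). This call was lost without H1792 DMSO replicates 2 or 3 or A549 DMSO replicates 1 or 2, with edgeR adjusted p-values up to 0.0741, and with all 12 samples in 1 fit (-1.22, edgeR adjusted p = 0.0529). In bulk samples, fewer cells in a phase of the cycle and less RNA per cell cannot be told apart.

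The sequence before the first annotated CDKN3 exon is shown because CDKN3 was the gene of the 8 that fell; it is RefSeq sequence of GRCh38.p14, chr14:54396757-54396848, plus strand. Capitals mark a CCAAT box, which NF-Y binds, and the cell cycle genes homology region (CHR), an element bound by the LIN54 subunit of the DREAM and MuvB complexes. The CHR was searched as TTTGAA and stands here on the minus strand.
CDKN3: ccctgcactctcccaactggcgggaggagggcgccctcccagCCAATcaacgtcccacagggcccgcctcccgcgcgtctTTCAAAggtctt
In the 250 bases before the RefSeq start, CDKN3 held TTTGAA once and CCAAT in 2 places on either strand, against 13.3% and 32.01% of all promoters of this length with at least 1. CDKN1A held neither, and no binding was measured. The printed CDKN3 stretch holds the first 92 of these bases, and the CCAAT match beyond it is not shown. CCAAT was also found before CDKN1B (2), CDKN2D (1) and 1 start of CDKN2C (1), but not before CDKN2A or CDKN2B. It therefore does not set CDKN3 apart, since CDKN1B and CDKN2D were not called. TTTGAA was found before no other CDKN gene with an entry.

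**Figure D3:**
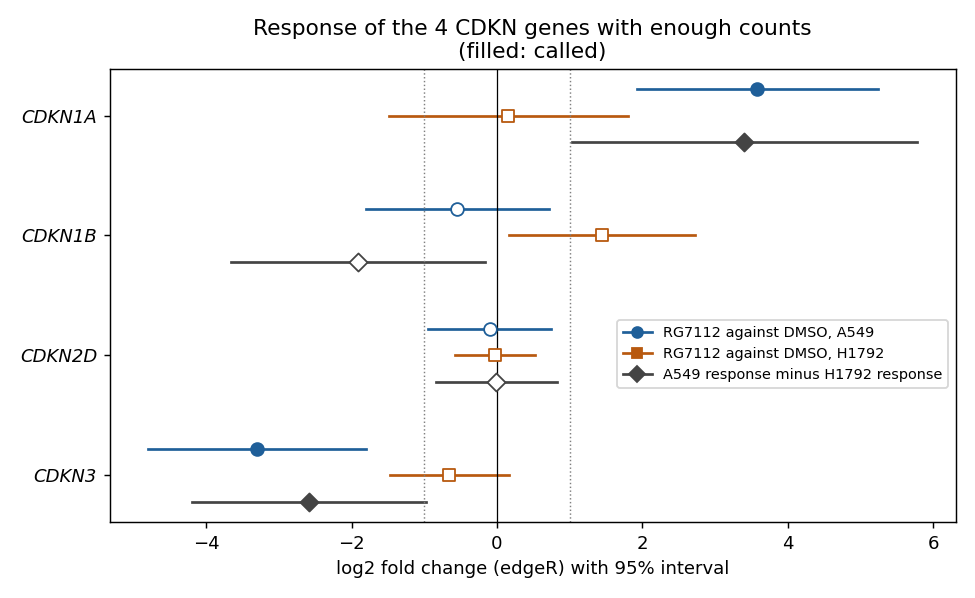
Fitted log2 fold change of the 4 tested CDKN genes (horizontal axis) with its 95% interval as a bar, for RG7112 against DMSO in A549, in H1792, and for the difference of these responses; filled markers passed the test, and dotted lines mark a log2 fold change of 1 in either direction. In A549 CDKN1A lies at 3.58 and CDKN3 at -3.30, CDKN1B missed the threshold in each comparison, and the CDKN2D intervals all contain 0.

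Per kilobase of exon, which allows levels to be compared between genes, CDKN3 and CDKN1A were the highest in A549 with DMSO, at 12.6 ± 2.88 and 12.2 ± 3.73 CPM per kb (SD, n = 3), and did not differ beyond their spread. CDKN2D followed at 4.76 ± 1.22 and CDKN1B at 2.48 ± 1.62, and these overlapped each other. With RG7112 the order in A549 was CDKN1A at 146 ± 141, CDKN2D at 4.50 ± 1.05, CDKN1B at 1.69 ± 0.473 and CDKN3 at 1.29 ± 1.20 CPM per kb. CDKN3 and CDKN1B overlapped there and changed places when the longest transcript gave the length. In H1792, CDKN3 was first and CDKN2D second with either treatment, at 29.3 ± 10.98 and 8.95 ± 1.80 CPM per kb with DMSO and 17.6 ± 5.57 and 8.34 ± 0.378 with RG7112, and the samples of these genes did not overlap. CDKN1A and CDKN1B were the lowest and overlapped each other, at 2.50 ± 2.00 and 1.74 ± 1.04 CPM per kb with DMSO and 2.59 ± 1.19 and 4.39 ± 1.82 with RG7112.

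**Figure D4:**
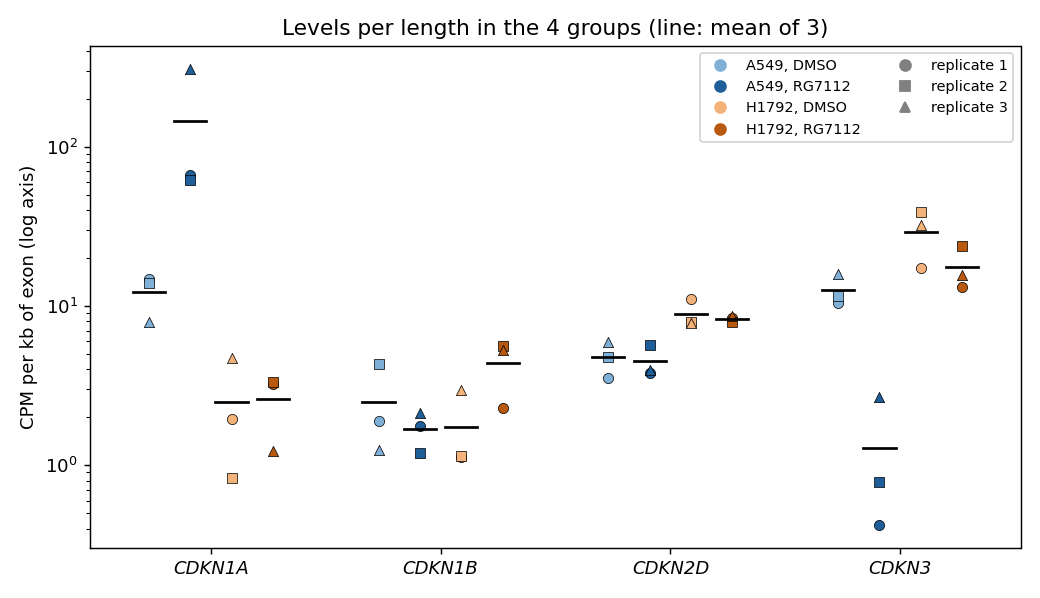
CPM per kb of exon (log axis) of the 4 tested CDKN genes in each sample, with color for the group, marker shape for the replicate and a line at the mean of 3. CDKN1A spans 0.832 to 309 CPM per kb over the 12 samples, and CDKN2D lies between 3.53 and 11.02.

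The genes whose levels over the 12 samples were most like CDKN3, by the root mean square distance of centered log2 CPM among 11666 genes, were CENPW (0.533), FOXM1 (0.539) and CENPN (0.546). CENPW and CENPN encode centromere proteins, and FOXM1 is a transcription factor of the mitotic genes. CENPW was at a mean of 20.4 CPM in A549 with DMSO, 2.62 with RG7112, 58.6 in H1792 with DMSO and 38.5 with RG7112. For CDKN1A the nearest were SHC2 (0.797), GRIN3B (0.817) and PRODH (0.833), which were at most 0.460 CPM on average in H1792. With a smaller prior count none of these 3 stayed nearest, so that the likeness rests on how low counts were treated.

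The CDKs and cyclins that these inhibitors act on were compared next, with lists of partners and regulators. The counts of each list stand beside 3.18% of all genes called higher and 3.01% lower in A549 and 10.3% higher and 4.34% lower in H1792. Of 13 CDKs and cyclins tested in A549, 0 were called higher and 3 lower, with a median log2 fold change of -0.32. CDK1, the mitotic kinase and a substrate of CDKN3, went from 18.1, 22.4 and 15.9 CPM with DMSO to 0.465, 0.477 and 0 CPM with RG7112, which is at or under 3 counts. CDK2, the kinase that p21 and p27 bind with cyclins E and A, fell from a mean of 52.8 to 18.4 CPM (log2 fold change -1.51, SE 0.28, edgeR adjusted p = 0.0193). CCNB1, the mitotic cyclin, fell from 266 to 27.9 CPM (log2 fold change -3.27, SE 0.18, edgeR adjusted p = 0.000326). In H1792, 2 of 12 were called higher and 0 lower, with a median of 0.25 against 0.01 over all genes. These were CDK2 (log2 fold change 1.51, edgeR adjusted p = 0.00851) and CCND1, the cyclin of the INK4 targets CDK4 and CDK6. CCND1 was 1.41, 2.54 and 0.872 CPM with DMSO and 54.2, 116 and 99.4 CPM with RG7112 in H1792. The value of DMSO replicate 3 was under 3 counts.

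The next list held pocket proteins, E2F factors and DREAM subunits, through which p21 and the INK4 proteins restrain transcription. It also held the transcription factors FOXM1 and MYBL2. In A549, 0 of 14 tested were called higher and 2 lower (median -0.51). These were FOXM1, which fell from 219 to 16.2 CPM, and MYBL2, the MYB protein of mitotic genes, which fell from 84.0 to 3.08 CPM. No pocket protein, E2F factor or DREAM subunit of the list was called in A549. In H1792, 4 of 16 were called higher and 1 lower (median 0.80). LIN54 went from 0.352, 0 and 0 CPM to 8.52, 12.6 and 8.38 CPM, and RB1, the retinoblastoma protein, from 0.352, 0.462 and 0.436 to 3.62, 3.56 and 6.98 CPM. All DMSO values of both genes were under the detection limit of 3 counts, which was 0.692 to 1.31 CPM in those libraries. The size of both rises is therefore not well fixed. RBBP4, a histone-binding subunit, rose from 50.5 to 98.1 CPM. E2F7, a repressor, was the other called higher (log2 fold change 4.90, from a mean of 0.878 CPM with DMSO). LIN37, a DREAM subunit, was the one called lower (-1.27), and both were named after their values were seen.

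Ligase components that degrade CDK inhibitors showed 0 of 13 called higher and 3 lower in A549 (median -0.49). DTL, the substrate receptor that directs p21 for degradation in S phase, fell from 36.8 ± 0.684 to 1.71 ± 0.304 CPM (SD, n = 3; log2 fold change -4.41, edgeR adjusted p = 0.000326). CDC20, an activator of the anaphase-promoting complex, fell from 31.7 to 1.33 CPM. CKS1B, the cofactor of SKP2 for p27, fell from 41.5 to 8.56 CPM (log2 fold change -2.33), and lost the call with replicates 1 and 2 alone (-1.79, edgeR adjusted p = 0.0611). In H1792, 1 of 13 was called higher and 1 lower (median -0.12). SKP2, the receptor for p27, was 4.58, 6.001 and 2.62 CPM with DMSO and 6.97, 16.2 and 23.7 CPM with RG7112 (log2 fold change 1.87, edgeR adjusted p = 0.0331), and DDB1, an adaptor that DTL uses, fell from 294 to 79.8 CPM (-1.82, edgeR adjusted p = 0.00402).

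Among transcription factors known at CDKN1A or CDKN1B, 0 of 17 tested in A549 were called higher and 1 lower (median 0.17). This was MYC, a repressor of CDKN1A, which fell from 83.5 to 33.4 CPM (log2 fold change -1.32, edgeR adjusted p = 0.00949). In H1792, 2 of 17 were called higher and 1 lower (median 0.48), which is near the 10.3% and 4.34% of all genes. SMAD3 and SMAD4, which carry the TGF-β signal, rose from 19.2 to 56.3 and from 20.9 to 51.5 CPM, and ZBTB17, the MYC partner MIZ1, fell from 36.9 to 14.1 CPM. Of regulators of the INK4 locus, 0 of 22 were called higher and 1 lower in A549 (median -0.31). The lower one was EZH2, the methyltransferase of Polycomb repression, from 46.5 to 11.7 CPM. In H1792, 3 of 20 were called higher and 0 lower (median 0.15), where 10.3% of all genes were called higher, and leaving out 1 sample gave 2 to 4 higher. BMI1, a Polycomb subunit that represses CDKN2A, rose from 17.4 to 52.2 CPM and ETS1, an activator of CDKN2A, from 72.2 to 153 CPM, while BCL6, a repressor, was at the fold threshold (log2 fold change 1.00).

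The p53 targets other than CDKN1A gave 5 of 23 called higher and 1 lower in H1792 (median 0.21), where 10.3% of all genes were called higher and 4.34% lower. Leaving out 1 sample gave 2 to 5 called higher, with 2 without DMSO replicate 2, RG7112 replicate 2 or RG7112 replicate 3 and 3 without RG7112 replicate 1. Other settings of the fit (DESeq2, GC correction and a replicate block) gave 2 to 3 called higher and 0 to 1 lower. PPM1D, a phosphatase that dampens p53, rose from 3.56 to 13.6 CPM, CCNG1, a cyclin, from 8.77 to 23.3 CPM, and PLK2, a kinase, from 29.8 to 66.3 CPM. RRM2B and ZMAT3 were the other 2 called higher and DDB2 the one lower, named after their values were seen. In A549, PPM1D, CCNG1 and PLK2 were not called (log2 fold change 0.66, 0.17 and 0.47). Of the targets described for A549, TP53I3 (-0.58) and BBC3 (-0.79) were not called in H1792, and TRIM22 was not tested there. With a correction for GC content, 2 of the p53 targets other than CDKN1A were called higher and 0 lower in H1792, against 1 and 0 of the transcription factors. This correction also took RBBP4 (0.62), SKP2 (1.42), SMAD4 (0.95), ZBTB17 (-0.75), ETS1 (0.78) and CCNG1 (0.98) out of the called genes of H1792. Leaving out 1 sample of 6 ended the call of SKP2 and ZBTB17 in 5 fits each and of RBBP4, BCL6 and PLK2 in 3 each in H1792, and in A549 that of CKS1B in 5, CDK2 in 3, MYBL2 in 2 and MYC and MDM2 in 1 each. The other list genes given by name as called in A549, FDXR aside, held in all 6.

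**Figure D5:**
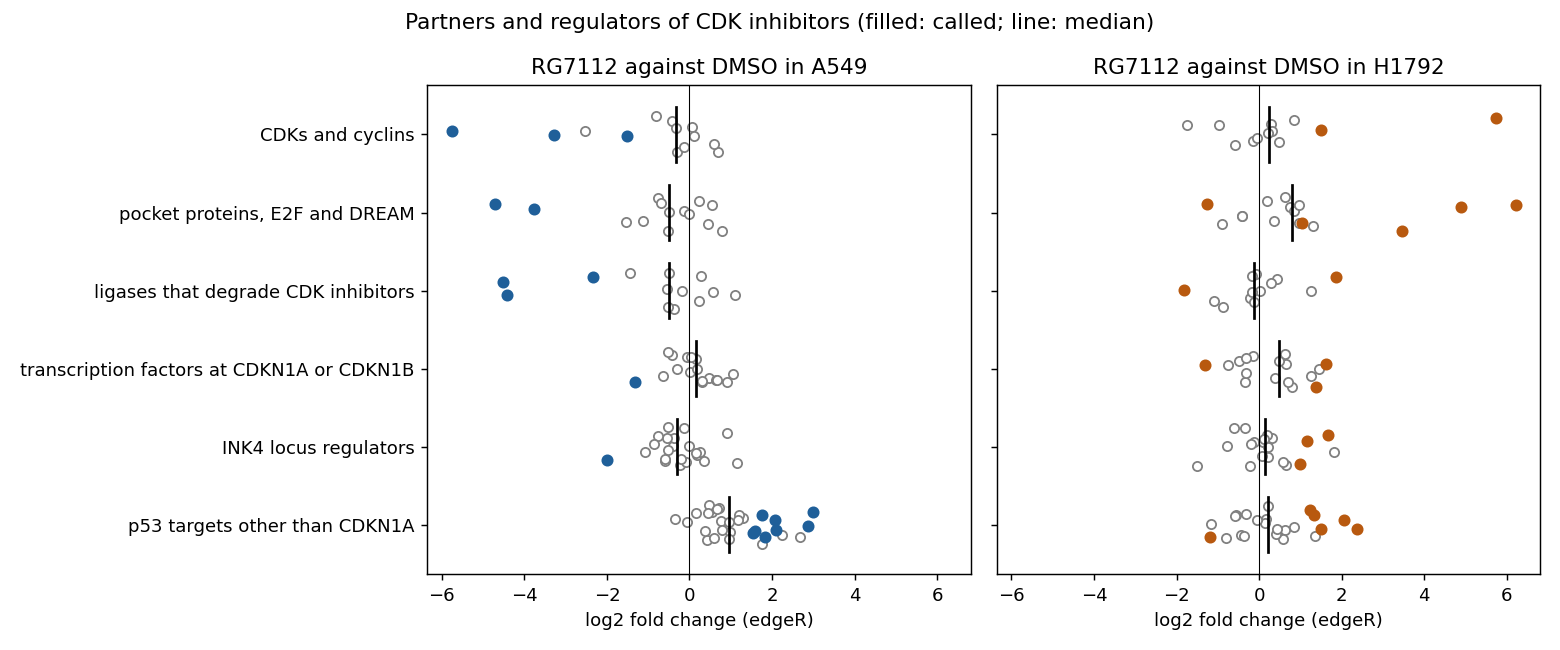
Fitted log2 fold change (horizontal axis) of each tested gene in 6 lists of partners and regulators of the CDK inhibitors, in A549 and in H1792; filled points were called and the line is the list's median. The p53 targets have a median of 0.97 in A549 and 0.21 in H1792, and in A549 the CDKs and cyclins (3) and the pocket protein list (2) have called genes on the lower side and 0 on the higher.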

How the data were processed

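Paired-end libraries of poly-A RNA had reads of 38 bases by the labels. The authors estimated transcript abundances with kallisto 0.45.0 on GRCh38 and deposited estimated counts (expected counts) summed per gene as whole numbers, without normalization between samples. Because kallisto shares reads among transcripts, counts of overlapping or similar genes are estimates. Of the 20595 identifiers, 18011 were in GENCODE v29, which gave symbols, positions and lengths. Promoters came from RefSeq (7 of the 8 genes had an entry). The members and lists were chosen with earlier results of these data known.

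Counts were fitted with edgeR 4.0.16 in R 4.3.3 (robust quasi-likelihood F-test, TMM scaling, filterByExpr with a minimum count of 10 and total of 15) for each line, for the 6 DMSO samples, and for the difference of responses over 12 samples. SE was the log2 fold change divided by the root of F, intervals used 95% of the t distribution, and CPM used TMM over the 12 samples. A difference of responses was called at an adjusted p under 0.05 alone. Exact permutation tests (two-sided) used log2(CPM + 1). Named genes were the 8 members, the 3 nearest patterns, MDM2 and, per list and line, up to 3 called genes of smallest p. Alternatives were DESeq2 1.42.0, limma 3.58.1, other scalings and filters, GC correction, a replicate block and samples left out. The scripts were tested on simulated data. Genes that were not in the table were not analysed here.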

Additional observations from a re-analysis of the deposited data

Results flagged for a closer look

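The difference of the responses passed the interaction test over the 12 samples for 2 of the 4 tested genes. For CDKN1A the response of A549 minus that of H1792 was 3.40 on the log2 scale (edgeR adjusted p = 0.0450), with values between 1.99 and 3.90 over the alternatives, and the call was lost in 8 of 11 other settings and in 9 of the 12 fits that left out 1 sample. For CDKN3 it was -2.58 (edgeR adjusted p = 0.0300), with values between -3.80 and -2.05, and the call was lost in 5 of those 12 fits and in 2 of 10 other settings.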

How the results depend on the processing

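With 3 samples a group and 2011916 to 6218825 counts a library, 4 of the 8 genes could not be tested, and each call rests on 1 gene. Among the 4 tested genes, the count called higher in A549 went from 1 to 0 with a replicate block (CDKN1A 3.12, adjusted p = 0.0672), with GC correction and block, and at an adjusted p under 0.01. The count called lower in A549 went to 0 at that threshold and where at least 10 counts in every sample were asked, which leaves CDKN3 untested. In H1792 the count called higher went to 1 with library size alone (CDKN1B). For the difference of responses, 0 were higher with library size alone, no filter, limma, the block, GC correction, both of these, the adjusted p under 0.01, and A549 replicates 1 and 2 only, and 0 were lower with GC correction, the filter of 10 counts, and the stricter p. At baseline 0 were higher at the stricter p, and the count lower was 0 with library size alone, the stricter p, and all 12 samples in 1 fit, and 2 with A549 replicates 1 and 2 only. The block changed no other call among these 4 genes, and among the other named genes it ended those of CKS1B (-2.40, adjusted p = 0.0590), and of SKP2 (1.75, adjusted p = 0.0902) and ZBTB17 (-1.30, adjusted p = 0.0891) in H1792. Same-numbered samples correlated in their deviations from the group means from 0.0609 to 0.273 in A549 and from -0.0238 to 0.00346 in H1792, and not every sample correlated best with its own number, so the numbers were not taken as pairs. The block gave 333 higher and 279 lower genes in A549 and 671 and 324 in H1792.

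Leaving out 1 sample gave 0 to 1 higher and 0 to 1 lower in A549, 0 to 1 higher and 0 lower in H1792, 0 to 1 each for the difference, and 0 to 1 higher and 0 to 2 lower at baseline. Values that turned sign were all uncalled. CDKN2D became 0.16 in A549 with replicates 1 and 2 only. In H1792 it became 0.23 with library size alone, 0.04 with the filter of 10 counts, 0.48 with GC correction and 0.50 with GC correction and block. Its difference became 0.05 with RLE scaling, 0.01 with limma or the block, and 0.25 with A549 replicates 1 and 2 only. Leaving out 1 sample gave -0.29 to 0.09 for CDKN2D in A549, -0.14 to 0.15 in H1792 and -0.23 to 0.17 for its difference, -0.31 to 0.99 for CDKN1A in H1792, and for CDKN1B -0.87 to 0.13 in A549 and -0.09 to 1.17 at baseline. MDM2 in H1792 became 0.22 with library size alone, 0.03 with the filter of 10 counts, 0.02 with limma and 0.01 with the block, and leaving out 1 sample gave -0.33 to 0.23. With a prior count of 0.5, 0 of the 3 genes nearest to CDKN1A were the same. The causes were not tested. Scaling by library size alone moved the median of all genes in H1792 from 0.01 to 0.269 and the calls there from 1020 higher and 430 lower to 1541 and 249, those of the difference from 1210 and 1329 to 645 and 2157, and those at baseline from 2131 and 1534 to 2563 and 1161. GC correction gave 667 and 299 in H1792, 346 and 199 with the block, and an adjusted p under 0.01 gave 135 and 144 in A549 (342 and 323 as reported), 504 and 218 in H1792 and 388 and 460 for the difference. The difference gave 681 and 872 with GC correction and block, and H1792 1752 and 1632 with no fold threshold. Leaving out 1 sample gave 149 to 299 higher and 159 to 256 lower genes in A549 and 615 to 1113 and 305 to 569 in H1792.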
